A study of Saccharomyces cerevisiae with 54 samples.

Results

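The genes described here are 27 budding yeast genes whose mRNA and ribosome footprints were negatively correlated over 7 hours of a meiotic time course. They were chosen by a rule on those hours (0, 1.5, 3, 4.5, 6, 8 and 10 h in sporulation medium) out of 6679 genes. Each value was taken as log2(RPKM + 1) less the median of all genes in its library, which is called the level below, and a Pearson r of mRNA with footprints was computed per gene. Members had a mean of 20 RPKM or more in both assays (5121 genes did), a footprint range of 1.5 or more on the log2 scale (3280 of those did) and an r of -0.4 or lower (28 genes did). The rule also leaves out 7 genes by name, 1 of which met the thresholds. The correlation and the range that chose the members are given below as a description and are not tested.

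Ribosome footprints are the stretches of mRNA that ribosomes protect from nuclease, so their density follows how much a message is translated, and for most genes it moves with the mRNA level. In budding yeast meiosis some genes are known to be transcribed from an upstream start as a long undecoded transcript isoform, whose 5′ leader carries upstream open reading frames and which yields little of the encoded protein. In such a gene the amount of mRNA and the amount of translation can differ in direction. The deposited values are 1 number per gene and do not separate transcript isoforms.

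All cells were of the SK1 background, a strain that sporulates efficiently. The time course has 1 footprint, 1 mRNA and 1 total RNA library for each of the 7 hours, for spores, for MATa/a cells at 4.5 h in sporulation medium and for exponentially growing cells at OD600 0.6. MATa/a diploids carry a single mating type and do not enter meiosis. A parallel set, labelled as prepared in parallel, holds libraries of meiotic cells, with 2 footprint libraries each at 1.5, 3 and 6 h, 2 mRNA libraries each at 1.5 and 6 h, 1 mRNA library at 3 h and single libraries at 0 h. One more footprint library of that set, from growing cells, enters no comparison here. A further 9 mRNA libraries come from meiotic cells of strain brun95, 5 with Ndt80 induction (5.75, 6, 6.5, 7 and 7.75 h) and 4 without it (4, 5.5, 6 and 7.75 h). Ndt80 is the transcription factor that drives exit from meiotic prophase. The labels do not say how it was induced. They also give no culture of origin for the replicates, and the p-values below therefore speak only to the scatter among these particular libraries, part or all of which may be technical.

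The libraries held 1030810 to 24724200 reads, as recovered from the RPKM values. The median gene of the course had 236 RPKM in the 0 h mRNA library, against 104 to 181 RPKM in the other 9 mRNA libraries. Levels are centred, as in the rule, and are therefore relative to that median. As a check of the labelled hours, all 12 middle meiotic genes considered rose at 6 h against 3 h in the parallel mRNA. The 12 early meiotic genes of the check are not described, so it covers that interval and assay only. In these bulk samples, fewer cells carrying an RNA and less RNA per cell cannot be told apart.

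Over the 7 hours the r of the members ran from -0.95 to -0.42, with a median of -0.54. The other 3248 genes past the expression and range thresholds, which include those just outside the r threshold and exclude the genes left out by name, had a median r of 0.88. Mean mRNA of the members ranged from 24.7 RPKM for YHP1 to 1906 RPKM for YSY6, and mean footprints from 20.8 RPKM for YML089C to 1570 RPKM for YSY6. Just inside the r threshold were UTP30 (-0.42), SNL1 (-0.43) and CDC60 (-0.43), and just outside it TRA1 (-0.37), MES1 (-0.36) and CSE1 (-0.36). Just inside the range threshold were YBR242W and BRE4 (both 1.50) and NAM2 (1.53), and just outside it RPC17 (1.47), GPI15 (1.46) and IML1 (1.46). On mean footprints, YML089C (20.8 RPKM), FRE1 (20.9 RPKM) and RAD16 (23.3 RPKM) were just inside, and YDR094W (19.3 RPKM), RTT10 (15.8 RPKM) and AAD6 (15.1 RPKM) just outside. On mean mRNA, YHP1 (24.7 RPKM), PDC5 (37.3 RPKM) and MDJ2 (39.7 RPKM) were nearest to the threshold, and no gene that met the other thresholds lay outside it.

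Several members act in mitochondria. MNE1, a matrix protein needed for splicing of the COX1 transcript, had mRNA levels of 0.53, 2.81, 2.90, 2.17, 1.77, 1.02 and 1.80 at 0, 1.5, 3, 4.5, 6, 8 and 10 h. Its footprint levels at those hours were -0.69, -3.23, -3.54, -2.64, -0.67, -1.20 and -1.46. Its mRNA was highest where its footprints were lowest, at 3 h, and the footprints returned to their 0 h level by 6 h.

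NAM2, the mitochondrial leucyl-tRNA synthetase, had the lowest r of all members. Its mRNA levels were -0.76, -0.50, -0.996, -1.0, -1.40, -1.30 and -1.15 over the 7 hours, and its footprint levels were -2.03, -2.64, -1.94, -1.48, -1.11, -1.40 and -1.62. The 1.5 h libraries hold its mRNA maximum and its footprint minimum, and the 6 h libraries the reverse. RPO41, the mitochondrial RNA polymerase, had mRNA levels of -0.53, 0.43, 0.81, 0.26, -0.62, -0.64 and 0.06, and footprint levels of -0.51, -3.04, -2.91, -3.03, -2.06, -1.16 and -0.58. Its footprints were low from 1.5 to 4.5 h, the hours at which its mRNA was high, apart from a partial return of the mRNA at 10 h.

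MCO6, found with mitochondria, differed from these in that its r came from 1 hour. Its mRNA level was 2.57 at 0 h and 1.40 to 1.97 afterwards, and its footprint level was -1.90 at 0 h and 0.74 to 1.47 afterwards. The 0 h footprint value rests on 1 recovered read, and without 0 h its r was 0.50. The other mitochondrial members are MCO32, also found with mitochondria, and MDJ2, a J-protein of the import machinery.

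Among genes of RNA processing and translation, BUD21, a component of the small subunit processome that assembles ribosomes, had the widest footprint range of the members (4.13). Its mRNA levels were 0.83, 1.60, 2.17, 2.02, 1.59, 1.69 and 1.51 over the 7 hours, and its footprint levels were 1.20, -1.44, -2.03, -2.93, -1.20, -0.15 and -0.18. Its footprints were lowest at 4.5 h and its mRNA highest at 3 h. POP5, a protein subunit of RNase P and RNase MRP, had mRNA levels of -1.96, -0.51, -0.40, -0.47, 0.15, 0.32 and -0.63 against footprint levels of 1.27, 0.08, -0.10, -0.41, -0.17, 0.27 and 0.34. The opposition of POP5 lies mostly in the 0 h libraries, and without them its r was 0.07. PRP18, a splicing factor, had a narrow mRNA range (-1.64 to -1.21) and footprint levels of -1.57 at 0 h and -0.70 to 0.16 afterwards. Its 0 h footprint value rests on 9 recovered reads. The other members of this kind are UTP30, of ribosome precursors, PSP2, an RNA-binding protein, and CDC60, the cytosolic leucyl-tRNA synthetase, so that both leucyl-tRNA synthetases of the cell met the rule.

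In the nucleus, YHP1, a homeobox repressor of the cell cycle, had an mRNA level of -5.62 at 0 h and -2.81 to -1.94 afterwards, with a footprint level of 0.20 at 0 h and -2.92 to -1.5 afterwards. The 0 h mRNA value of YHP1 rests on 4 recovered reads, and without 0 h its r was 0.71. MCM22, a kinetochore protein, had a footprint level of -3.41 at 0 h, resting on 2 recovered reads, and -1.92 to -0.91 afterwards. TFB2, a subunit of the general transcription factor TFIIH, RAD16, of nucleotide excision repair, and SNL1, an Hsp70 cochaperone of the endoplasmic reticulum and nuclear envelope, complete the nuclear and envelope group.

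At membranes and in metabolism, OPT2, an oligopeptide transporter, had an mRNA level of 3.28 at 0 h and 0.45 to 1.71 afterwards, against a footprint level of -2.08 at 0 h and -0.74 to 0.38 afterwards. YSY6, a small protein of the secretory pathway, had mRNA levels of 3.97, 2.81, 3.39, 3.71, 3.77, 4.08 and 3.20 and footprint levels of 3.27, 4.82, 4.75, 4.41, 3.74, 3.97 and 4.21 over the 7 hours. In contrast to MNE1 and BUD21, its footprints were highest at 1.5 and 3 h, when its mRNA was low. FRE1, a ferric reductase, PDC5, a pyruvate decarboxylase isozyme, BOI1, of bud growth, and BRE4, a membrane protein, belong here. PDC5 resembles its paralog PDC1 in sequence, so reads of the 2 genes may be divided between them.

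YEL068C, MBB1, YBR242W and the dubious frame YML089C have no role stated here. YEL068C had an mRNA level of 2.70 at 0 h and -0.50 to 0.93 afterwards, and a footprint level of -2.32 at 0 h and -1.56 to -0.15 afterwards. As with OPT2, its 0 h mRNA was above and its 0 h footprints below every later value. The 0 h footprint value of YEL068C rests on 2 recovered reads, and without 0 h its r was 0.23.

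**Figure D1:**
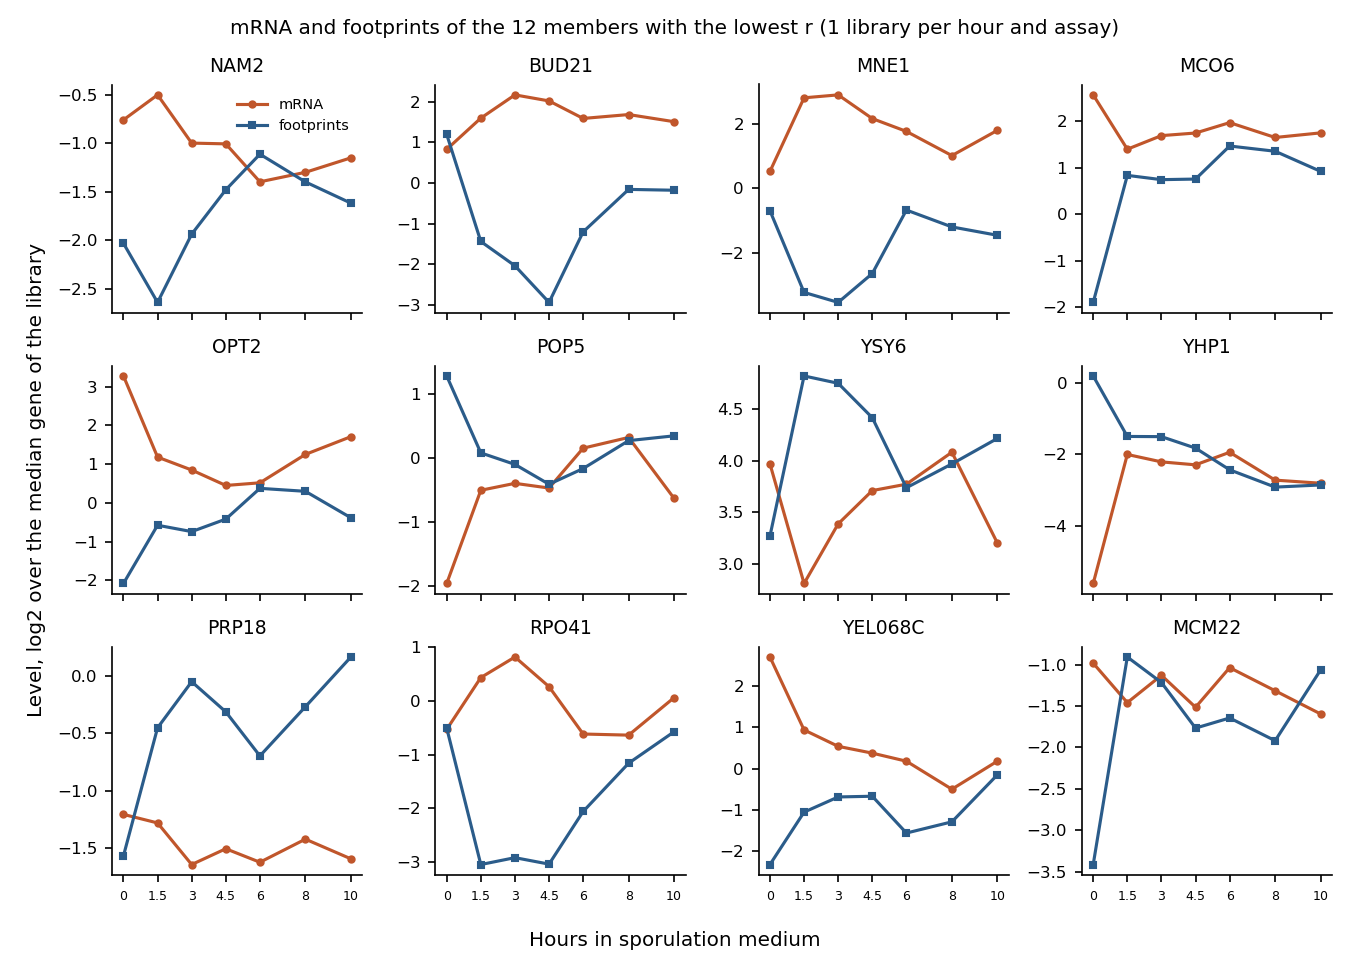
Levels of mRNA and footprints (log2 over the median gene of the library) against hours in sporulation medium for the 12 members with the lowest r, with 1 library per point. MNE1, BUD21 and RPO41 have low footprints from 1.5 to 4.5 h beside high mRNA, whereas MCO6, OPT2, POP5, YHP1 and YEL068C differ mainly at 0 h.

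Extremes of mRNA and footprints in the members fell most often on 0 h. The mRNA was lowest at 0 h in 12 members and highest there in 6, and the footprints were highest at 0 h in 10 and lowest there in 8. At least 1 of these extremes fell on 0 h in 23 of the 27 members. These counts come from the values that chose the members. The share of other genes with an extreme at 0 h was not counted. Footprints were lowest at 4.5 h in another 8 members, among them BUD21, BOI1 and RAD16. Without the 0 h libraries, 12 of the 27 members kept an r of -0.4 or lower and 20 an r below 0, and the highest r was 0.71 for YHP1. With any other hour left out, 22 to 25 members kept an r of -0.4 or lower. NAM2, BUD21, MNE1, RPO41 and YSY6 kept it with each hour left out in turn.

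The 0 h libraries differ from the others in depth and scale. The 0 h footprint library held 2274890 recovered reads, the fewest of the course, and 6 of 182 member values in the course footprints rest on fewer than 10 reads. The median footprint value of a member rests on 128.5 reads. The part of depth in the 0 h values was not tested.

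Total RNA sequencing of the same states gave a second RNA measurement for the 26 members with a reference length. Of 182 member values in these libraries, 58 rest on fewer than 50 reads and 5, all at 0 h, on fewer than 10. These correlations share their footprint values with the rule and are a description. Total RNA and footprints had an r below 0 in 22 of 26 members and of -0.4 or lower in 16, with a median of -0.56. Among 3187 other genes past the expression and range thresholds, 1.79% had an r below 0 and 0.220% an r of -0.4 or lower.

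PDC5 (-0.92), OPT2 (-0.84), MNE1 (-0.82) and NAM2 (-0.80) had the lowest r with total RNA. In MNE1 total RNA levels were 0.78, 3.00, 3.69, 3.45, 2.58, 1.57 and 1.91 over the 7 hours, high at the same hours as its mRNA. YBR242W (0.75), PSP2 (0.73), MDJ2 (0.69) and PRP18 (0.67) had a positive r instead. In these 4 members the mRNA and total RNA libraries also differed, with an r between them of -0.48, 0.13, 0.27 and -0.51, against a median of 0.80 over the 26 members. That r was also low in YSY6 (0.10) and MCM22 (0.19), whose r of total RNA with footprints was -0.40 and -0.23. Without 0 h, an added comparison chosen after seeing the data, the r with total RNA was -0.4 or lower in 9 of 26 members and below 0 in 16.

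The parallel libraries were not used by the rule and give the same measure in other libraries. Over their 4 hours (0, 1.5, 3 and 6 h), 16 of the 27 members had an r below 0 and 12 an r of -0.4 or lower, with a median of -0.17. Among the other 3248 genes, 4.06% had an r below 0 and 1.75% an r of -0.4 or lower, with a median of 0.94. TFB2 (-0.96), YEL068C (-0.95), MBB1 (-0.92), BUD21 (-0.83) and MNE1 (-0.81) were lowest. YBR242W (0.94) and MCO6 (0.93) were highest, followed by PSP2 (0.89), CDC60 (0.87) and SNL1 (0.84), and YSY6, whose r of -0.75 in the course withstood leaving out any hour, had 0.70 here.

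An r over 4 points is coarse, and the parallel 0 h values are 1 library of each assay. In that 0 h footprint library SNL1 and YEL068C are listed at 0, in the shallowest library of all. NAM2, BUD21, MNE1, RPO41, YEL068C, RAD16, PDC5 and TFB2 had an r of -0.4 or lower with both total RNA in the course and mRNA in the parallel libraries. Without the parallel 0 h libraries, an added comparison over 1.5, 3 and 6 h, 15 members had an r below 0 and 11 an r of -0.4 or lower. Among the other 3248 genes, 10.1% and 6.47% did. Of the genes just named, YEL068C (0.06) and RAD16 (-0.33) then had an r above -0.4, while SNL1 had -0.89.

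**Figure D2:**
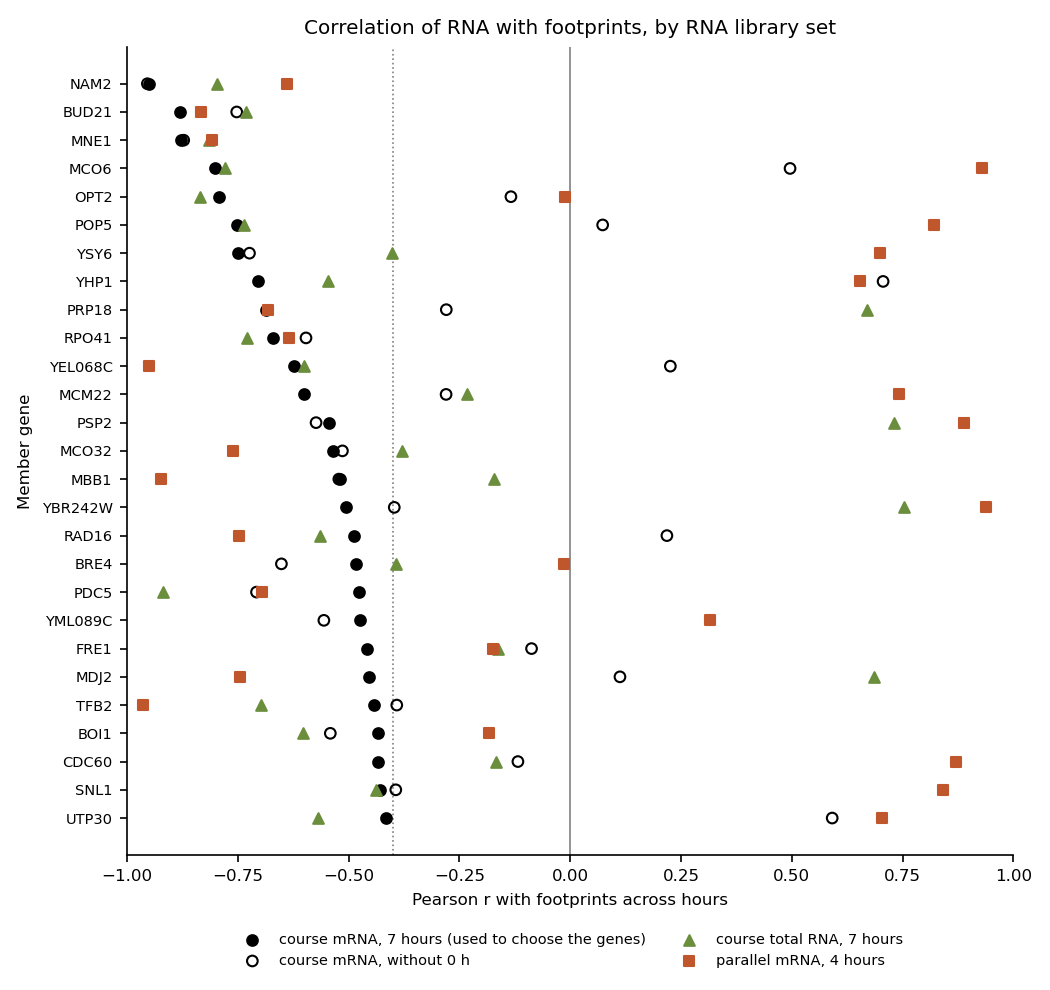
Pearson r of RNA with footprints across hours for each member, ordered by the course r that chose it. Filled circles are the 7-hour course values, open circles the same without 0 h, triangles total RNA and squares the 4 hours of the parallel libraries. The dotted line is the threshold of -0.4. NAM2, BUD21, MNE1, RPO41 and PDC5 lie left of it in all 4 measures.

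The replicated hours of the parallel set allow a test. A single limma model over 11 libraries gave the mRNA change, the footprint change and their difference, the change in translation efficiency, for 6 h against 3 h and for 3 h against 1.5 h. All 27 members were among the 5967 genes tested, and calls are at a Benjamini-Hochberg adjusted p under 0.05 over all of them. Since 3 h has 1 mRNA library, its spread is taken to be that of the remaining groups. The counts below cover 27 genes chosen for a related pattern, and are read beside the share of all genes called.

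TFB2 was called in both assays with opposite signs. Its mRNA levels were 0.61 and 0.23 at 6 h, against 1.24 in the 3 h library, and its footprint levels were -0.77 and -0.84 at 6 h, against -1.49 and -1.47 at 3 h. Neither assay overlapped between the hours. TFB2 mRNA fell by 0.82 (SE 0.24, limma adjusted p = 0.0339) while its footprints rose by 0.68 (SE 0.20, adjusted p = 0.0190). Of all 5967 genes, 8 (0.134%) were called with opposite signs, 7 of them with mRNA up and footprints down (0.117%), and TFB2 was the only one with mRNA down and footprints up (0.0168%). The call was lost without any 1 of the 3 h or 6 h footprint libraries and without 6 h mRNA replicate 2. With uncentred values TFB2 footprints rose by 0.42 with an adjusted p of 0.096, and MNE1 was called opposed in its place (mRNA -1.35, footprints 1.88).

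MNE1 had the largest footprint rise of the members. Its footprint levels were -0.83 and -0.21 at 6 h, against -2.37 and -2.95 at 3 h, and its mRNA levels were 2.44 and 2.16 at 6 h, against 2.99 in the 3 h library. Both 6 h footprint values lay above both 3 h values and both 6 h mRNA values lay below the 3 h value. The footprints rose by 2.14 (SE 0.30, limma adjusted p = 5.18e-04), the mRNA changed by -0.69 (SE 0.37, adjusted p = 0.190), and translation efficiency rose by 2.83 (SE 0.48, adjusted p = 0.0404). At an unadjusted limma p under 0.05, translation efficiency changed in 13 members and in 747 of all 5967 genes. MNE1 was the only member called in translation efficiency after adjustment, where 0.536% of all genes were called. That call was lost without either 3 h footprint library, 6 h footprint replicate 2 or either 6 h mRNA library, and its adjusted p ran from 0.0198 to 0.163 over all alternatives.

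Footprints of 12 of the 27 members changed at 6 h against 3 h, where 47.1% of all genes were called. The rises were 8 (19.3% of all genes rose) and the falls 4 (27.8% fell). With uncentred values they were 6 and 6, and without 3 h footprint replicate 1 the calls numbered 7. The median footprint change was 0.31 over the members and -0.18 over all genes tested.

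Besides MNE1 and TFB2, the rises were in YML089C, BRE4, NAM2, PSP2, PDC5 and OPT2. NAM2 footprint levels were -0.98 and -0.87 at 6 h, against -2.63 and -2.06 at 3 h, a rise of 1.42 (SE 0.26, limma adjusted p = 0.00248), with an mRNA change of -0.13 (SE 0.32). BRE4 levels were -0.13 and 0.04 at 6 h, against -1.45 and -1.75 at 3 h, a rise of 1.56 (SE 0.20), with an mRNA change of 0.09. In NAM2 and BRE4 the footprints rose with no called change in mRNA, and in neither did the footprint values of the hours overlap. OPT2 (1.08) and PSP2 (1.28) rose in footprints beside mRNA changes of 0.55 and 0.48 in the same direction, neither called. PDC5 rose by 1.20 and YML089C by 1.96; PDC5 had 9 recovered reads in 3 h replicate 1. The PDC5 and YML089C calls were lost without 3 h footprint replicate 1 or 6 h footprint replicate 2, and the PDC5 call also without 6 h footprint replicate 1.

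The 4 falls were in SNL1, FRE1, YBR242W and MBB1. FRE1 footprint levels were -3.11 and -2.90 at 6 h, against -1.33 and -1.98 at 3 h, a change of -1.35 (SE 0.38, limma adjusted p = 0.0171), while its mRNA levels were 1.21 and 1.11 at 6 h, against 0.05 in the 3 h library (change 1.11, SE 0.46, adjusted p = 0.104). FRE1 mRNA was above its 3 h value in both 6 h libraries, without being called. The FRE1 footprint values at 6 h rest on 27 recovered reads in replicate 1 and 9 in replicate 2. SNL1 had the largest fall, -1.95 (SE 0.30), but its 6 h values rest on 7 recovered reads in replicate 1 and 1 in replicate 2. YBR242W fell by 1.19 and MBB1 fell by 0.82. The FRE1 fall was lost without 3 h footprint replicate 1 or either 6 h footprint library, and the MBB1 fall without either 3 h footprint library, 6 h footprint replicate 1 or either 6 h mRNA library. Over the members, 9 of 156 parallel footprint values of 1.5, 3 and 6 h rest on fewer than 10 reads, and 7 of these are from 6 h replicate 2 (1407810 reads).

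The mRNA of 2 members, TFB2 and BOI1, fell at 6 h against 3 h, and none rose, where 26.8% of all genes were called (11.5% down and 15.3% up). BOI1, which binds Bem1 in polarized growth, had mRNA levels of 0.09 and -0.35 at 6 h, against 0.87 in the 3 h library (change -0.998, SE 0.32, limma adjusted p = 0.0444), and footprint levels of -2.17 and -2.02 at 6 h, against -2.18 and -2.63 at 3 h. Its footprint change of 0.31 (SE 0.26) was not called. The BOI1 mRNA call was lost without any 1 of the 3 h or 6 h footprint libraries or 6 h mRNA replicate 2, and the count of members called ranged from 0, without either 3 h footprint library, to 3. BUD21 (-1.03, SE 0.44, adjusted p = 0.111) and RPO41 (-1.05, SE 0.37, adjusted p = 0.063) had mRNA changes of that size that were not called. Their footprint changes were 0.34 (SE 0.36) and 0.59 (SE 0.30), and in RPO41 both 6 h footprint values (-2.44 and -1.93) lay above both 3 h values (-2.67 and -2.88). Uncentred, the median of all genes moved by -0.81 in mRNA and -0.45 in footprints, and changes here are relative to that shift. Without centring, 10 members were called in mRNA, all lower at 6 h. The share of all genes called without centring was not counted.

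**Figure D3:**
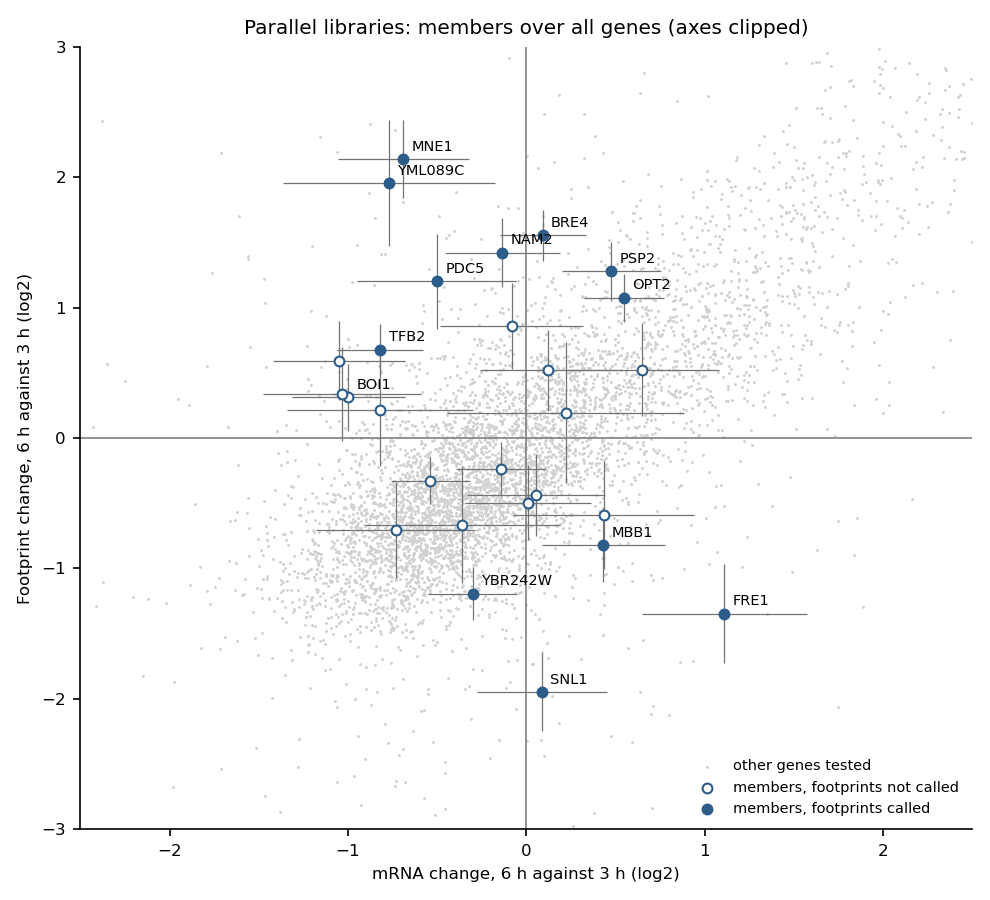
Footprint change against mRNA change, 6 h against 3 h in the parallel libraries (log2, relative to the median gene). Circles with standard errors are the 27 members, filled where the footprint change was called. Grey points are the other genes tested, without those listed at 0 footprints in all of these libraries. TFB2 (-0.82 in mRNA, 0.68 in footprints) and MNE1 (-0.69, 2.14) lie at the upper left and FRE1 (1.11, -1.35) in the lower right.

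**Figure D4:**
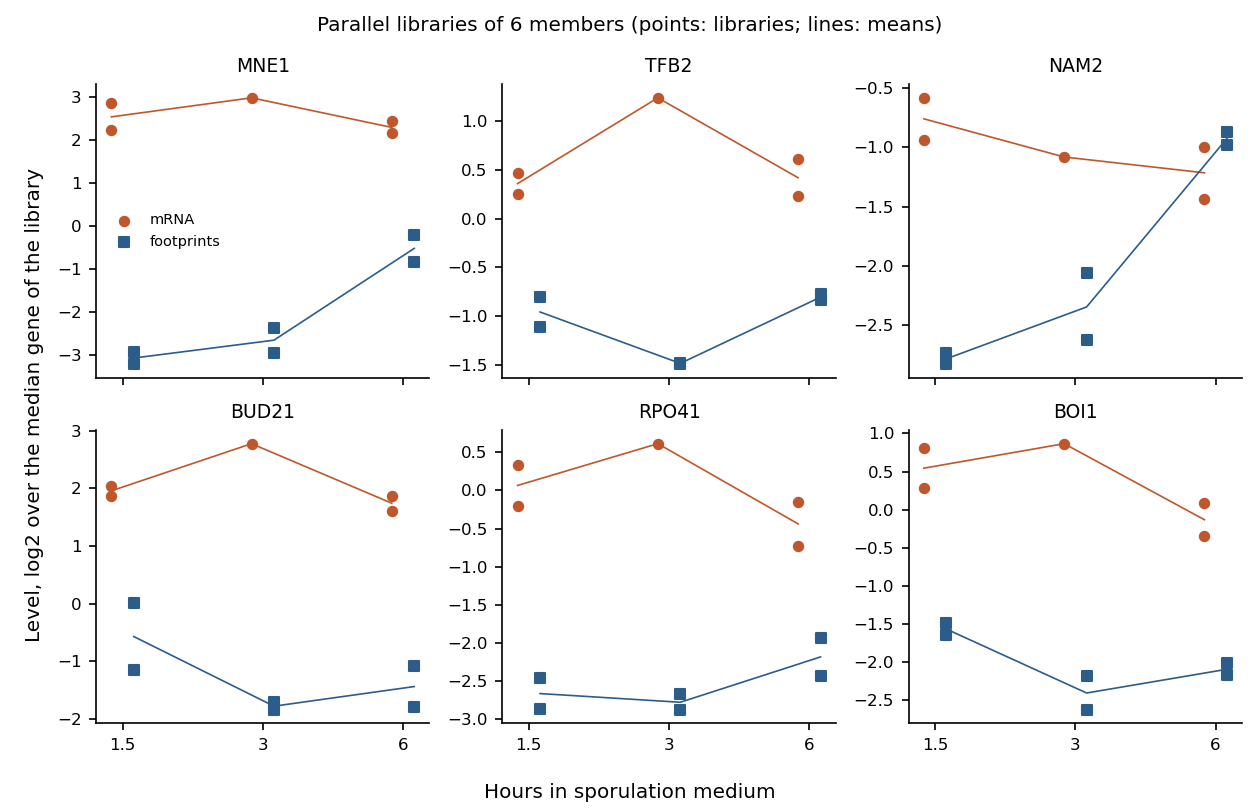
Levels in the parallel libraries of MNE1, TFB2, NAM2, BUD21, RPO41 and BOI1 at 1.5, 3 and 6 h (log2 over the median gene). Each point is a library and lines join means. TFB2 mRNA is highest (1.24) and its footprints lowest (-1.49 and -1.47) at 3 h.

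Between 1.5 and 3 h fewer members changed. YSY6 mRNA was 4.57 in the 3 h library, against 3.59 and 3.44 at 1.5 h, a rise of 1.05 (SE 0.22, limma adjusted p = 0.0465), where 2.25% of all genes were called (1.36% up). FRE1 footprints were -1.33 and -1.98 at 3 h, against 0.25 and -0.70 at 1.5 h, a change of -1.43 (SE 0.38, limma adjusted p = 0.0487), where 8.92% of all genes were called (6.1% up and 2.82% down). In neither gene did the hours overlap. The YSY6 call was lost without each library that could be left out, other than the 1.5 h footprints. The FRE1 call was lost without 1.5 h footprint replicate 1, any 3 h or 6 h footprint library or either 6 h mRNA library, and without 1.5 h footprint replicate 2 the count of falls was 5.

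No member was called by limma in translation efficiency at 3 h against 1.5 h, and none was called opposed. In all, 0% of genes were called in translation efficiency and 0.0168% as opposed. At an unadjusted limma p under 0.05 there were 5 members in translation efficiency (503 of 5967 genes) and 1 opposed (17 of 5967 genes). BUD21 had the largest change, -2.03 (SE 0.57, limma adjusted p = 0.514). Its footprint levels were -1.85 and -1.71 at 3 h, against 0.02 and -1.16 at 1.5 h, and its mRNA was 2.78 at 3 h, against 1.87 and 2.05 at 1.5 h. TFB2 had -1.40 (SE 0.31, adjusted p = 0.364), with higher mRNA and lower footprints at 3 h than in both 1.5 h libraries.

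Cells that starve without meiosis give a further state. At 4.5 h the meiotic and the MATa/a cells have 1 library per assay, so there is no test, and a difference of 1 or more in level is counted. The meiotic 4.5 h libraries entered the rule. Meiotic footprints were lower in 14 of the 27 members (22% of 5121 genes were) and higher in 1, OPT2 (16% of genes were). Meiotic mRNA was higher in 6 members (22.4% of genes) and lower in 11 (31.2%), and meiotic total RNA higher in 6 of 26 (23.2%) and lower in 7 (26.4%).

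In MNE1, MCO32 and RAD16 meiotic mRNA was higher and footprints lower by at least that step, which held for 3.89% of all genes; the reverse held for no member and 0.801% of genes. MNE1 mRNA was 2.17 in meiotic cells, against -1.13 in MATa/a cells, and its footprints were -2.64, against -0.57. MCO32 mRNA was 1.34 in meiotic cells, against -0.95 in MATa/a cells, and its footprints -2.20, against -0.25. RAD16 mRNA was 1.04 in meiotic cells, against -0.66 in MATa/a cells, and its footprints -2.53, against 0.14. Total RNA had the same direction as mRNA in these genes, at 3.45 in meiotic against -0.93 in MATa/a cells for MNE1, 0.54 against -2.51 for MCO32, and 1.26 against -0.74 for RAD16.

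In BOI1, FRE1 and RPO41 the footprint difference was -2.87, -2.98 and -1.55 and the mRNA difference 0.78, 0.47 and 0.83. For CDC60 both were lower in meiotic cells, with footprints of -0.76 against 1.73 in MATa/a cells and mRNA of 1.02 against 2.13. SNL1 also had both lower, and in YML089C the mRNA was 1.52 in meiotic against -3.88 in MATa/a cells while the footprints were -3.16 and -3.17.

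**Figure D5:**
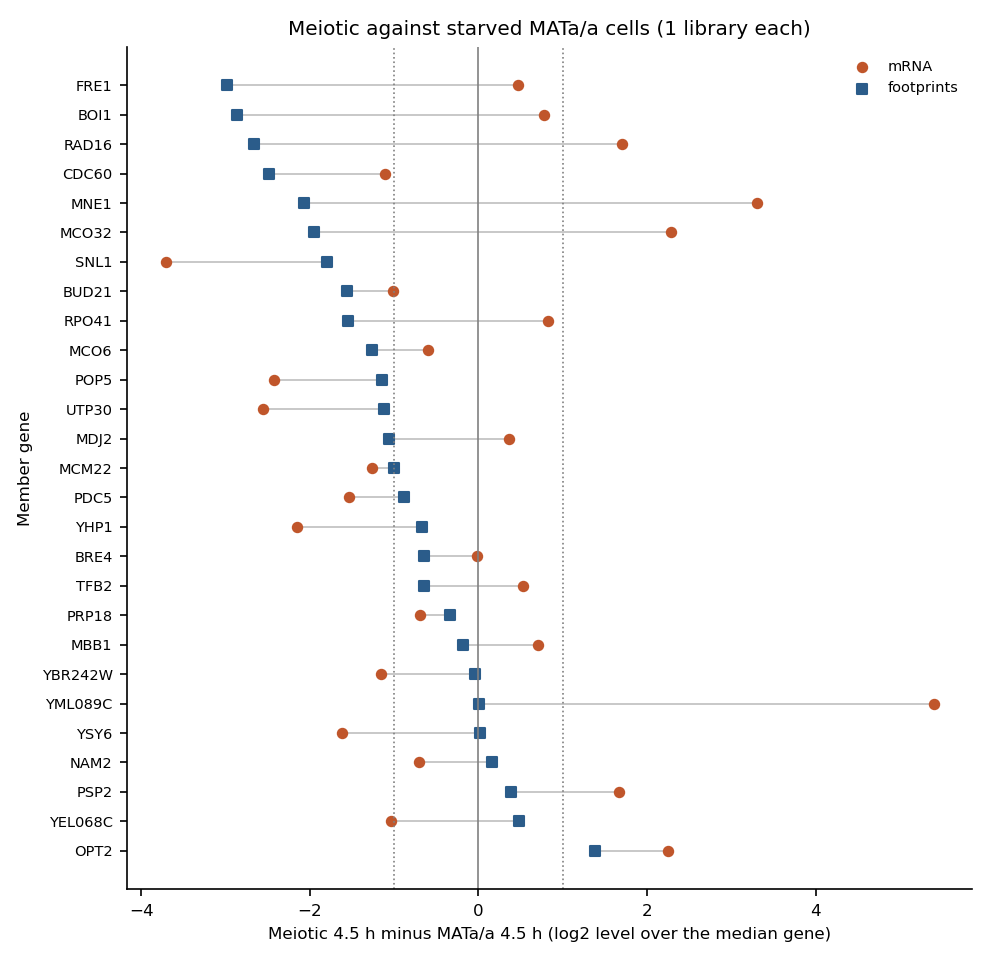
Difference in level between meiotic and MATa/a cells at 4.5 h for the 27 members (log2, 1 library each), with circles for mRNA and squares for footprints. Dotted lines mark a difference of 1 either way. MNE1 differs by 3.30 in mRNA and by -2.07 in footprints.

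In spores against 10 h cells, with 1 library each, footprints were higher by 1 or more in 7 members (5.43% of all genes) and lower in 1 (9.55% of genes). The 10 h libraries entered the rule, so these counts are a description and not independent of the choice of members. RAD16 had a footprint level of 0.44 in spores, against -1.23 at 10 h, and MCO32 0.23, against -0.77. Members' mRNA was higher in 2 and lower in 2 (11.6% and 13.3% of genes). MNE1 mRNA was -0.25 in spores, against 1.80 at 10 h, with footprints of -0.64, against -1.46. At 0 h against growing cells, footprints were lower in 11 members (35.1% of genes) and higher in 3 (26.1%). The 0 h libraries also entered the rule. CDC60 footprints stood at 1.41 at 0 h, against 4.07 in growing cells, and BUD21 at 1.20, against 2.29.

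Ndt80 induction was measured in mRNA only. The fit has 1 linear hour term for both arms, so a change that grows with time after induction can be partly taken up by it. No member was called by limma with hour as a term, at an adjusted p under 0.05, where 5 of 5974 genes (0.0837%) were, and 9 members had an unadjusted p under 0.05. Of these, 3 were higher in induced cells (7.97% of genes were) and 6 lower (6.68%). The higher ones were MDJ2 with a change of 0.76, MCO6 with 0.68 and BRE4 with 0.59. BOI1 mRNA ran from -0.24 to 0.88 (median 0.54) in the 5 induced libraries, against 1.25 to 1.61 (median 1.46) in the 4 uninduced ones. Its change was -0.95 (SE 0.27, adjusted p = 0.263). MNE1 ran from 1.84 to 3.16 (median 2.59) in induced cells, against 3.11 to 3.82 (median 3.57) in uninduced cells, a change of -0.87 (SE 0.31, adjusted p = 0.314) with overlap in a single induced library. TFB2 ran from 0.55 to 1.14 (median 0.82) in induced cells, against 0.95 to 1.74 (median 1.39) in uninduced cells, a change of -0.68 (SE 0.23, adjusted p = 0.305), and its groups overlapped. Every induced library was below every uninduced one in 4 members, BOI1, YML089C, CDC60 and RPO41 (5.93% of genes), and above in 0 (4.4%). YML089C ran from 0.30 to 1.10 in induced cells, against 1.33 to 2.93 in uninduced cells, a change of -1.09 (SE 0.34, limma adjusted p = 0.263). CDC60 ran from 1.09 to 1.41 in induced cells, against 1.52 to 1.89 in uninduced cells, a change of -0.40 (SE 0.21). RPO41 ran from -1.02 to 1.39 in induced cells, against 1.46 to 1.57 in uninduced cells. Its induced levels fell in order of hour, from 1.39 at 5.75 h to -1.02 at 7.75 h. Over the same libraries FRE1 rose from -0.06 to 2.97 and PSP2 from 0.06 to 2.14. The uninduced library of 7.75 h had -0.05 for FRE1 and 0.40 for PSP2, although FRE1 stood at 1.26 uninduced at 4 h. Such courses over the hours were not tested or counted over the members. The median change was -0.09 over the members and -0.05 over all genes.

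Few members fall into the gene lists considered. Of 24 lists written from general knowledge, the aminoacyl-tRNA synthetases (31 genes) hold CDC60 and NAM2, and the kinetochore list (41 genes) holds MCM22, while the other lists hold none. The lists are incomplete, so a list with no member does not show that no member has that role. Of the 31 synthetases tested in the parallel libraries, footprints of 7 rose and 3 fell at 6 h against 3 h, and mRNA of 3 rose and 1 fell. Of 41 kinetochore genes, footprints of 11 rose and 14 fell, and mRNA of 5 rose and 4 fell. Among all 5967 genes tested, footprints rose in 19.3% and fell in 27.8%, and mRNA rose in 15.3% and fell in 11.5%.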

How the data were processed

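Footprints, mRNA and total RNA were sequenced as described below for 54 samples. The submitters' processing notes name CASAVA, bcl2fastq 2.17 and Bowtie2. No source used here gives the genome build, the annotation, the counting tool or the strand, and coordinates are left out. Values are RPKM computed by the authors, per the file headers, in 5 tables of 6679 genes. The other unit is that of 9 deposited total RNA columns, which behave as reads multiplied by gene length and were put back on a per-length scale with RefSeq lengths, and of 1 deposited induction column, RPKM with an hour in its first line. Of 59 columns, 6 were not used, and 5 lines name no gene.

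In the table of parallel libraries, names of 443 genes stand in another order, and 12 columns were assigned by position, since the reordered genes had an r with the course 3 h mRNA of 0.80 to 0.98 by position and 0.06 to 0.18 by name. The 3 h mRNA columns differed in 0 genes and count as 1 library. The parallel 0 h mRNA column was assigned by its sample's title, because the column named in its description repeats the course 0 h mRNA in all genes; it enters no test. Reads were recovered from RPKM with the RefSeq length less 60 bases, and 77.9 to 90.8% of values up to 100 reads came out whole within 0.02.

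Levels are log2(RPKM + 1) less the all-gene median of the library, so that a fold change understates low genes. Genes with a mean of 5 RPKM or more were tested with limma 3.58.1 (R 4.3.3, trended eBayes, Benjamini-Hochberg). The parallel fit had 5 residual degrees of freedom and the induction fit 6, with hour as a linear term. In data simulated from the parallel libraries (5967 genes), 77% of changes of 1.5 and 98% of changes of 3 on the log2 scale were recovered; for the induction (5974 genes), 62% and 95%. The members, lists, tests and the naming rule were chosen with earlier results of these data known. The naming rule gives values for members called opposed in the parallel libraries, the 12 lowest r, members called on induction, and the 3 genes either side of each threshold; values of other members, chosen after they were seen, follow calls, correlations or the MATa/a comparison. Other tools were Python 3.11.15, numpy 2.4.6, pandas 2.3.3 and matplotlib 3.10.9.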

Additional observations from a re-analysis of the deposited data

Results flagged for a closer look

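Within the induction groups, each member's highest and lowest library was compared with its nearest neighbour by Dixon's gap criterion at 95%, which chance passes in about 1 of 20 groups, and 3 of 54 groups passed it. MBB1 mRNA stood at 2.42 in the induced library of 7.75 h, against 1.10 in the nearest of the other induced libraries. YHP1 mRNA stood at -3.79 in the same library, against -3.21 in the nearest. Before centring, MBB1 was not set apart, at 324 RPKM in that library and 184 to 359 RPKM in the other induced libraries. The median gene had 59.5 RPKM in that library, against 104 to 167 RPKM in the other induced libraries. FRE1 mRNA stood at 1.26 in the uninduced library of 4 h, against 0.16 in the nearest of the later uninduced libraries. The libraries of a group differ in hour, and the 7.75 h induced library is the shallowest of the induction series (2622080 reads), with 3 recovered YHP1 reads.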

How the results depend on the processing

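The rule found 27 genes, and 134 with uncentred values, of which 16 are members. With hour 0 left out it found 25 genes, of which only 10 are members. With total RNA in place of mRNA it found 18, of which 11 are members. Under the other alternatives it found 24 to 35 genes, with 19 to 23 members among them. Counts of members called by limma moved as follows. For mRNA at 6 h against 3 h, 2 were called, against 10 uncentred, 4 with quantile normalization, 1 without a filter and 0 to 3 with 1 library left out. For translation efficiency at 6 h against 3 h, 1 was called, against 3 uncentred, 0 without a filter and 0 to 2 with 1 library left out. Footprints at 6 h against 3 h gave 12, and 7 to 13 with 1 library left out, the 7 being without 3 h footprint replicate 1. Footprints at 3 h against 1.5 h gave 1, against 0 uncentred, with quantile normalization or without a filter, and 0 to 5 with 1 library left out, the 5 being falls without 1.5 h footprint replicate 2. For mRNA at 3 h against 1.5 h, 1 was called, and 0 to 1 with 1 library left out. The opposed call at 6 h against 3 h was 1, and 0 to 1 with 1 library left out. Shared replicate numbers showed little pairing of the samples (correlations of deviations from -0.11 to 0.24 over 10 pairs of groups, 1 above 0.1). The 1 above 0.1 was footprints with mRNA at 1.5 h (0.24), where some pairing is possible, and the same 2 assays at 6 h gave -0.02. With the replicate number as a block, no member was called (0) in mRNA in either interval, in translation efficiency at 6 h against 3 h or as opposed, and 13 were called in footprints at 6 h against 3 h. Leaving out the 3 h mRNA library left no contrast to fit. Of 17 called member changes, 7 were called under each of the 16 alternatives (MNE1, NAM2, BRE4, OPT2, PSP2, SNL1 and YBR242W, all in footprints at 6 h against 3 h); over 272 such results 215 were still called, 57 were not and 0 changed sign. In the induction 0 members were called in each library omission. Of 156 parallel footprint values, 70 rest on fewer than 50 reads.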
